A study of Homo sapiens with 6 samples.

Results

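The comparison describes what distinguished WA09 human embryonic stem cells from the mesoderm made from them in 4 days. Its members are 4 of the 6 arrays of the series, chosen by sample title: 2 arrays of undifferentiated cells (hESC) and 2 arrays of nascent mesoderm (INM). WA09 is an established line of human embryonic stem cells, and every group derives from it. The hESC were kept in StemPro, a defined medium, and the INM were the same cells after 4 days in which 50 ng/ml of the ligand BMP4 and 25 ng/ml of Wnt3a were added. The source label calls the INM cells ISL1+, and no sorting or purification step is given in the sources used here, so each INM array is treated as a bulk measure of the culture. The remaining group, smooth muscle cells (SMC) made with the same 2 proteins in 21 days, entered the fit for its estimate of the spread and served as a set of arrays outside the comparison.

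Wnt3a and BMP4 are secreted signals. Wnt proteins bind Frizzled receptors and stabilise beta-catenin, which acts with TCF and LEF factors on DNA, and BMP ligands act through SMAD proteins. In the embryo both signals pattern the mesoderm that forms at the primitive streak, and ISL1 is a LIM-homeobox factor of the mesoderm that later contributes to the heart and its vessels. Pluripotent cells leaving their state lose factors such as SOX2 and the miRNAs of the miR-302 family.

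Values are log2 signals, so that a difference of 1 is a 2-fold difference of signal, and changes are INM minus hESC with their standard error (SE). Genes with an adjusted p under 0.05 were called, in a limma fit to all 6 arrays, with Benjamini-Hochberg adjustment over the 18417 genes measured. A call is described as kept where it also passed in each of the 4 fits that left out 1 hESC or INM array. Leaving out an INM array also removes the gap between the INM arrays from the spread. A kept call therefore does not show that the INM arrays agree: NOG was kept with 10.31 and 8.52 in INM. All 3690 calls that were not kept were lost without hESC replicate 1 or hESC replicate 2, 442 of them also without INM replicate 1 and 494 also without INM replicate 2. Fits without SMC arrays are no part of the rule for kept calls. The spread is pooled over the 3 groups, so the tighter SMC pair can lower the SE of a change. With only the 4 hESC and INM arrays 2627 rises and 1871 falls were called, against 3486 and 2731 with all 6. Whether the 2 arrays of a group stem from separate cultures is not in the labels, and p-values thus reflect the spread of these samples alone, which may be technical. In bulk RNA, fewer cells of a type and less RNA per cell cannot be told apart.

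The INM arrays stood further apart than either other pair, and this bears on each result. They differed by more than 1 in 700 of the 18417 genes, against 16 in the hESC pair and 11 in the SMC pair. Their median absolute difference was 0.191, against 0.122 and 0.110. The median of all gene levels was 7.10 on both hESC arrays and 7.17 and 7.19 on the INM arrays. Olfactory receptor genes, which serve odour sensing in the nose, gave a working measure of low signal: 95% of them lay under 6.14 in hESC and under 5.66 in INM. These limits are used where a gene is said to stand at the olfactory receptor level.

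The labelled cell type was checked against markers. ISL1 stood at 5.54 and 5.28 on the hESC arrays and at 9.46 and 9.55 on the INM arrays, and 9 of 10 markers of ISL1 mesoderm were called higher. PDGFRA, GATA4 and FOXF1 were among them, but these 3 calls were lost without hESC replicate 1 and without hESC replicate 2. The exception was KDR, at 10.28 and 10.30 in hESC and at 9.09 and 11.47 in INM. Of 11 measured markers of pluripotent cells 9 were called lower. LIN28A, an RNA-binding protein, and ZFP42, a zinc-finger factor, were not called and kept high signal, at 10.39 and 11.76 and at 9.99 and 9.44 on the INM arrays.

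Markers of other cell types moved as well. Of 8 measured markers of trophoblast or amnion 6 were called higher, and their summed signal went from 534 and 483 in hESC to 5280 and 3287 in INM. TFAP2A, GATA3 and VTCN1 carried the largest of these changes, at 5.37, 3.92 and 3.10. CGA, the hormone subunit of placental cells, was not called (5.75 and 5.50 in hESC, 7.75 and 5.12 in INM), and ELF5 stood at the olfactory receptor level. Of 7 smooth muscle markers 4 were called higher, with summed signals of 1373 and 1374 in hESC and 7314 and 4649 in INM, while MYH11, LMOD1 and TAGLN were not. Endothelial markers gave 1 call among 7, ERG at 0.69, which was lost without hESC replicate 1. The summed endothelial signal was 848 and 843 in hESC and 670 and 1810 in INM, higher on INM replicate 2 alone. This sum followed 1 gene, TEK, whose change was 1.63 without INM replicate 1 and -0.92 without INM replicate 2. The other 6 of the 7 markers were higher on INM replicate 1. The median difference over the list was 0.19 (replicate 1 minus replicate 2). Of the 7, 4 stood at the olfactory receptor level in INM. Of 6 blood markers RUNX1 and HBZ were called higher, the former lost without hESC replicate 1 or 2 and the latter without hESC replicate 2. Of 8 primitive streak markers EVX1 and MIXL1 were called higher and MESP1 lower, and none of these calls was kept. Endoderm markers gave 2 rises of 7, CXCR4 (0.87) and APOA2 (0.99), neuroectoderm markers 1 rise (NES) and 1 fall (OTX2) of 6, and cardiomyocyte markers 1 fall (TNNI3) of 5. The part of such cells in the results was not tested.

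How far the 2 INM arrays shared their changes from hESC varied with the limit set on the change. Each INM array was set against a different hESC array, so that no array served on both sides. The 2 sets of changes correlated with r = 0.823 across genes (0.803 with the hESC arrays exchanged), where genes are not independent replicates, and they had the same sign in 77.7% of genes. INM replicate 1 was more than 2 above its hESC array in 437 genes and INM replicate 2 in 390, with 254 genes on both lists, which is 58.1% of the former list and 65.1% of the latter. In the falling direction 183 and 174 genes passed that limit and 121 did so on both, 66.1% and 69.5% of the lists. At a limit of 3 the shared genes were 71 of 155 and 137 rises, 45.8% and 51.8% of the lists, and 25 of 44 and 34 falls, 56.8% and 73.5% of the lists. At a limit of 1 they were 62.1% and 70.3% of the lists of rises and 60.3% and 63.6% of the lists of falls. Falls were thus shared more often than rises at limits of 2 and 3, but not at 1.

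**Figure D1:**
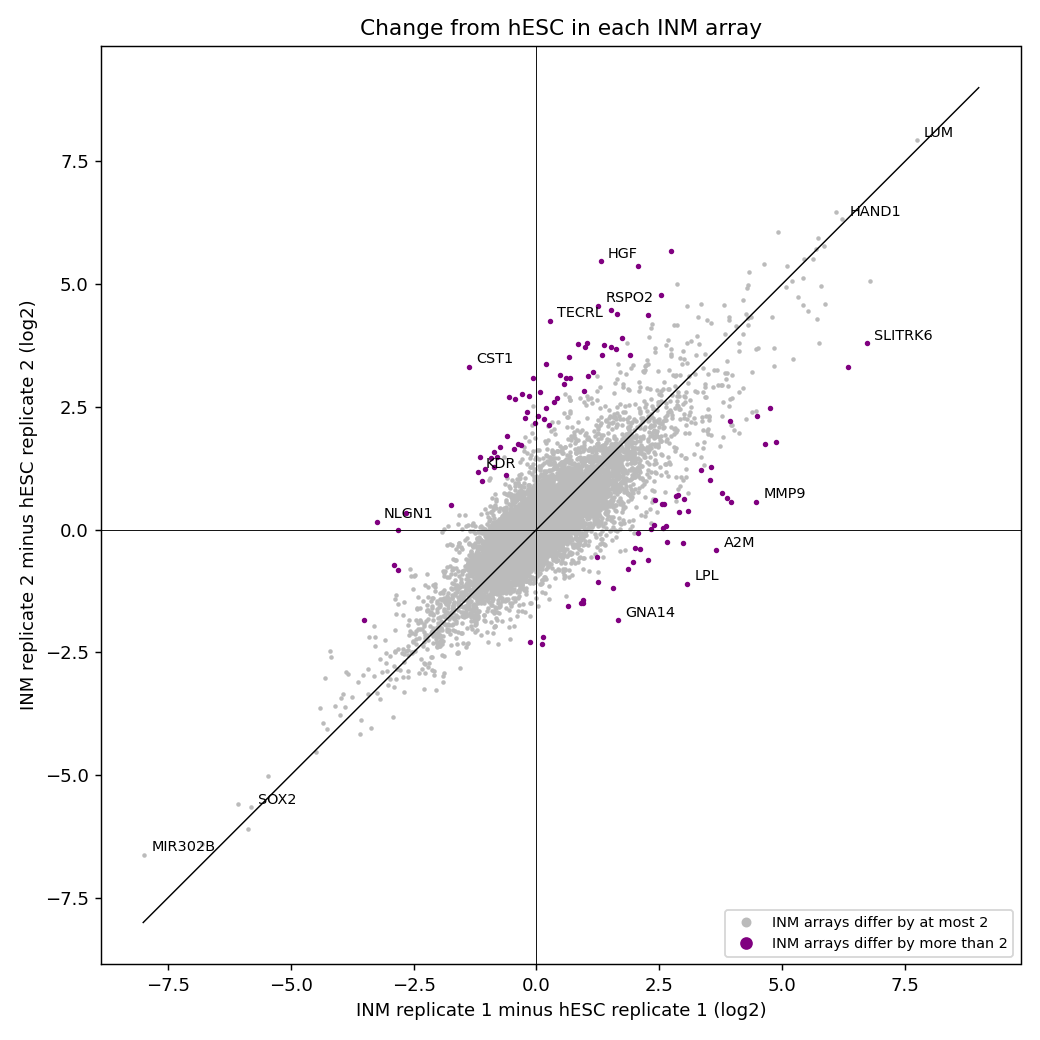
Change of each of the 18417 genes from hESC replicate 1 to INM replicate 1 (horizontal axis, log2) against its change from hESC replicate 2 to INM replicate 2 (vertical axis, log2), with the line of equal change. Purple points are the 111 genes in which the INM arrays differed by more than 2; LUM, HAND1, SOX2 and MIR302B lie near the line, while LPL, GNA14 and CST1 lie on opposite sides of no change.

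The genes on which the INM arrays disagreed were named by the size of the gap. Of the 700 genes, INM replicate 1 was the higher array in 315 and INM replicate 2 in 385. INM replicate 1 was higher by 4.26 for LPL (lipoprotein lipase), by 3.84 for the matrix protease MMP9, by 3.56 for the protease inhibitor A2M and by 3.26 for INHBA, the activin subunit. MMP9 stood at 7.19 and 7.25 in hESC and at 11.66 and 7.82 in INM, so that its rise was carried by INM replicate 1 and was not called (adjusted p = 0.116). The same difference, replicate 1 minus replicate 2, was -4.73 for CST1, a cystatin, -3.87 for TECRL, -3.65 for NLGN1 (neuroligin) and -3.37 for HGF, the hepatocyte growth factor. HGF stood at 4.82 and 4.03 in hESC and at 6.13 and 9.50 in INM, and its call at 3.39 (SE 0.96) was lost without hESC replicate 1 or 2 and without either SMC array.

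Several genes of signalling and patterning differed in this way. FGF10, a growth factor, and its receptor gene FGFR2 were both higher on INM replicate 2, with differences of -2.94 and -2.92. FGF10 stood at 5.48 and 5.17 in hESC and at 4.93 and 7.87 in INM, while FGFR2 stood at 9.83 and 9.75 in hESC and at 7.17 and 10.10 in INM. RSPO2, a secreted enhancer of Wnt signalling, was higher on INM replicate 2, at 9.60 against 6.69. GATA6, a zinc-finger factor of endoderm and heart mesoderm, stood at 8.20 and 7.60 in hESC and at 8.15 and 10.11 in INM. MEF2C, a muscle transcription factor, was higher on INM replicate 1 by 2.78, with 10.59 and 7.81 in INM and 5.72 and 6.04 in hESC. Among the 10 ISL1 mesoderm markers, 1 was higher on INM replicate 1 and the rest on INM replicate 2, with a median difference of -0.76 (replicate 1 minus replicate 2), and that of ISL1 was -0.08.

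In 6 genes the INM arrays lay on opposite sides of both hESC arrays by more than 1. LPL stood at 7.17 and 7.07 in hESC and at 10.24 and 5.98 in INM. GNA14, a G-protein subunit, stood at 7.00 and 7.16 in hESC and at 8.67 and 5.32 in INM. For CST1, KDR, the cysteine protease CTSV and PLPPR4 the order was turned, with INM replicate 2 above hESC and INM replicate 1 below it. CST1 showed the widest gap, at 8.43 and 8.48 in hESC and at 7.07 and 11.80 in INM. A mean over the 2 INM arrays describes neither array for these genes.

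A rise of more than 2 was seen on INM replicate 1 alone in 19 genes and on INM replicate 2 alone in 21, where the other array was within 0.5 of the hESC mean. MIR21 was of the former kind, at 5.84 and 5.81 in hESC and at 7.91 and 5.75 in INM. So were CDKN2A, the cell cycle inhibitor (7.38 and 7.66, then 9.94 and 7.69), AHR, the aryl hydrocarbon receptor (7.69 and 7.81, then 9.92 and 8.16), and the integrin subunits ITGA2 and ITGA3. Of the latter kind were COLEC12, a scavenger receptor (6.85 and 7.07, then 7.33 and 10.22), and MFAP4, a microfibril protein (6.40 and 6.63, then 6.25 and 9.36). None of the genes named here was called.

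The SMC arrays gave a way to describe the direction of the disagreement. In 561 genes the SMC mean exceeded the hESC mean by more than 2, and INM replicate 1 was the higher INM array in 58.6% of them, against 48.7% of all genes. In 300 genes the SMC mean lay more than 2 below hESC, and INM replicate 1 was the lower INM array in 70.7% of them, with a median difference of -0.32. Among families, INM replicate 1 was the higher array in 35 of 40 protocadherin genes, cell adhesion molecules, with a median difference of 0.38. It was the higher array in only 21 of 105 genes of ribonucleoproteins and splicing factors (median -0.25), in 12 of 73 mitochondrial ribosomal proteins (median -0.20) and in 7 of 45 proteasome subunits (median -0.19).

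Across the genome 3486 genes were called higher in INM (18.9% of those tested) and 2731 lower (14.8%), together 33.8%. Of these, 1556 rises (8.45%) and 971 falls (5.27%) were kept. Without hESC replicate 1 the counts were 1719 and 1220, and without hESC replicate 2 they were 2003 and 1324. A change of at least 1 was called in 1322 rises (7.18%) and 741 falls (4.02%), and large changes were more often rises: 126 against 36 at more than 3, and 19 against 6 at more than 5. The 95% confidence interval of the change lay within 1 of no change for 13632 genes (74.0%) and within 0.5 for 4974. Both INM arrays lay above both hESC arrays in 33.3% of genes and below both in 34.9%.

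**Figure D2:**
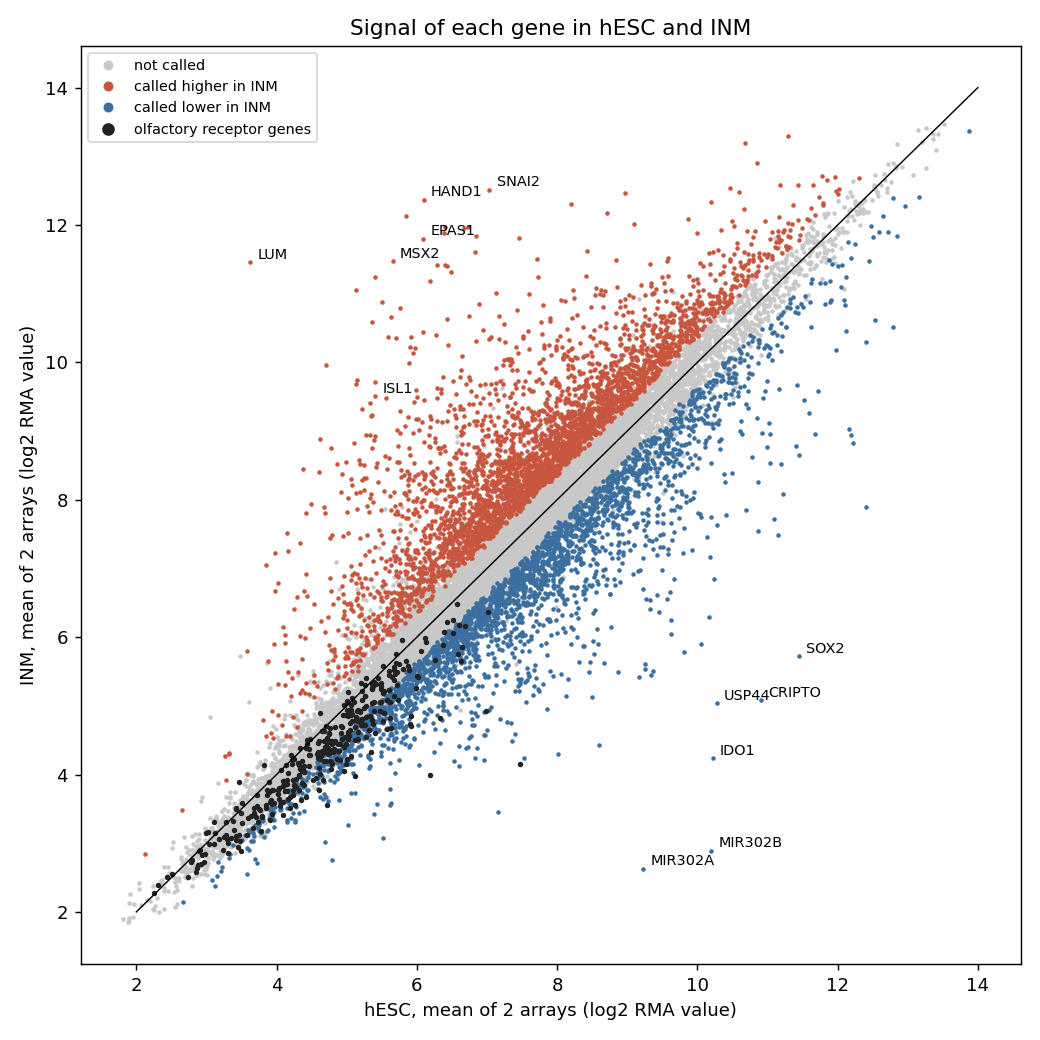
Mean log2 signal of each gene on the 2 hESC arrays (horizontal axis) and on the 2 INM arrays (vertical axis), with the line of equality. Red genes were called higher and blue genes lower in INM, grey genes were not called, and black points are the 338 olfactory receptor genes, most of which lie a little below the line at the low end.

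The direction of small changes depended on the signal level and on the scaling. Genes were placed in 10 equal groups by their level on the SMC arrays, which enters the estimate of the spread but not the change from hESC to INM. In the lowest group the median change was -0.19, with 1.09% called higher and 15.9% lower, and in the highest group it was 0.32, with 41.0% called higher and 8.14% lower. Olfactory receptors were called higher in 0 of 338 cases and lower in 81, with a median change of -0.30. Their median level was 4.78 and 4.70 in hESC and 4.37 and 4.34 in INM. Rises were 56.1% of all calls in the deposited values, 46.0% after median centring, 46.2% after quantile normalization and 52.4% after cyclic loess, a normalization that removes a trend with level (16.3% of genes called higher and 14.7% lower). Of the calls of at least 1, 1304 of the 1322 rises and 739 of 741 falls remained calls in the same direction after quantile normalization, and 1295 and 734 after cyclic loess. A small change that follows the trend of its level therefore has no settled direction here, and the part of array background in it was not tested.

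**Figure D3:**
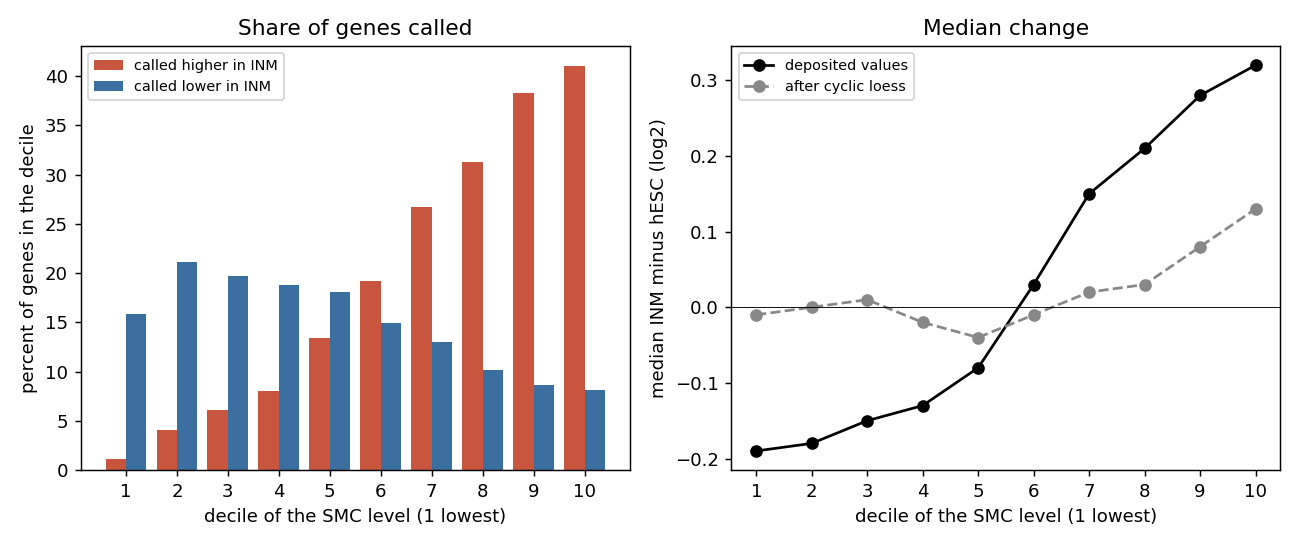
Share of genes called higher (red) and lower (blue) in INM, left, and median change, right, in 10 equal groups of genes ordered by their level on the SMC arrays. The median change of the deposited values runs from -0.19 to 0.32 and after cyclic loess from -0.04 to 0.13.

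Genes that passed between the olfactory receptor level and a clear signal form the sharpest part of the change. There were 493 calls higher among genes that stood at that level in hESC and above it in INM, of which 264 were kept, and 231 calls lower in the opposite direction, of which 166 were kept. By more than 3 the counts were 79 and 18. Most calls lay elsewhere: 2938 rises and 1866 falls were in genes above the level in both groups. Among the 3959 genes at the level in both groups 631 were called lower and 55 higher.

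The most negative measured changes were those of the miR-302 family, miRNAs of pluripotent stem cells whose seed, bases 2 to 8, sets which messenger RNAs they bind. MIR302B stood at 10.09 and 10.31 in hESC and at 2.10 and 3.69 in INM, a change of -7.30 (SE 0.47, adjusted p = 0.00017). MIR302A stood at 9.10 and 9.36 in hESC and at 2.30 and 2.96 in INM, a change of -6.60 (SE 0.24, adjusted p = 2.8e-05). The INM values lay well under the olfactory receptor limit of 5.66, where the size of a change is not settled. Taken only down to that limit, the falls were at least 4.54 for MIR302B and 3.57 for MIR302A on the log2 scale, so their rank above falls such as that of SOX2 (-5.73) is not fixed. The probe sets carry the names of precursor genes, and whether they read the precursor or the mature miRNA was not tested. Mature sequences from RefSeq (GRCh38.p14) are given with the seed in capitals, to show 3 pairs of falling miRNAs that share one:
hsa-miR-302a-3p (chr4:112648186-112648208, minus strand): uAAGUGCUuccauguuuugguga
hsa-miR-302b-3p (chr4:112648489-112648511, minus strand): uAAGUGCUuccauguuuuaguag
hsa-let-7f-5p (chr9:94176353-94176374, plus strand): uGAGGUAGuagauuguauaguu
hsa-let-7g-5p (chr3:52268336-52268357, minus strand): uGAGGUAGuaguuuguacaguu
hsa-miR-221-3p (chrX:45746180-45746202, minus strand): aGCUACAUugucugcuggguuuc
hsa-miR-222-3p (chrX:45747036-45747056, minus strand): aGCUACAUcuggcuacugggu

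The 6 miRNAs printed form 3 pairs of shared seed, and they were chosen as such after their values were seen. The seed AAGUGCU of the miR-302 pair is carried by 12 mature miRNAs of the reference table, GAGGUAG of the let-7 pair by 11 and GCUACAU of the miR-221 and miR-222 pair by 2. MIRLET7F1 stood at 7.35 and 7.22 in hESC and at 4.82 and 4.71 in INM, a change of -2.52 (SE 0.23). MIRLET7G changed by -1.55 (SE 0.25), from 6.81 and 7.13 to 5.79 and 5.05. MIR221 stood at 6.50 and 6.70 in hESC and at 4.94 and 3.89 in INM, and MIR222 at 5.87 and 5.91 in hESC and at 4.49 and 4.30 in INM. The INM arrays lay below the hESC arrays in each of the 6, as in 34.9% of all genes, and the 6 calls were kept. Kept falls outside these pairs included MIR186 at -1.83 (SE 0.18) and MIR32 at -1.59 (SE 0.17). Of 173 miRNA genes measured, 60 (34.7%) were called lower, 17 of them kept, and 1 (0.578%) higher, MIR30A at 0.56 (SE 0.12), a call lost without hESC replicate 1. MIR222, MIR186 and MIR30A stood at the olfactory receptor level in both groups. Of the 3959 genes at that level in both groups 631 were called lower and 55 higher, so the trend with level bears on these miRNAs.

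Small nucleolar RNAs, which guide the modification of ribosomal RNA, were called lower in 106 of 175 cases (60.6%) and higher in 3 (1.71%), with a median change of -0.76 from a median hESC level of 7.20. SNORA74A stood at 9.63 and 9.62 in hESC and at 5.88 and 6.21 in INM, a change of -3.58 (SE 0.15). SNORD116-28 and PWAR6 belong to the imprinted Prader-Willi region, and they changed by -3.37 (SE 0.25) and -4.01 (SE 0.30). Long non-coding RNAs were called lower in 128 of 632 cases (20.3%) and higher in 20 (3.16%). The largest kept non-coding rise was that of LINC01555, from 4.73 on both hESC arrays to 6.65 and 5.94. Of 393 transcribed pseudogenes 70 (17.8%) were called lower and 20 (5.09%) higher. The median change of each of these 4 classes lay under that of all genes, -0.03. Their median hESC levels were 4.86 for miRNA genes, 5.76 for long non-coding RNAs and 6.03 for pseudogenes, so that the trend with level bears on those 3 classes.

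Among protein-coding genes 20.3% were called higher and 13.7% lower. The share given for a family below is to be read beside these. The 30 largest kept rises ran from 7.83 to 4.34 and the 30 largest kept falls from -5.98 to -3.01. Their selection favours groups that do not overlap, and nothing is read from the separation of the arrays in these 60 genes.

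**Figure D4:**
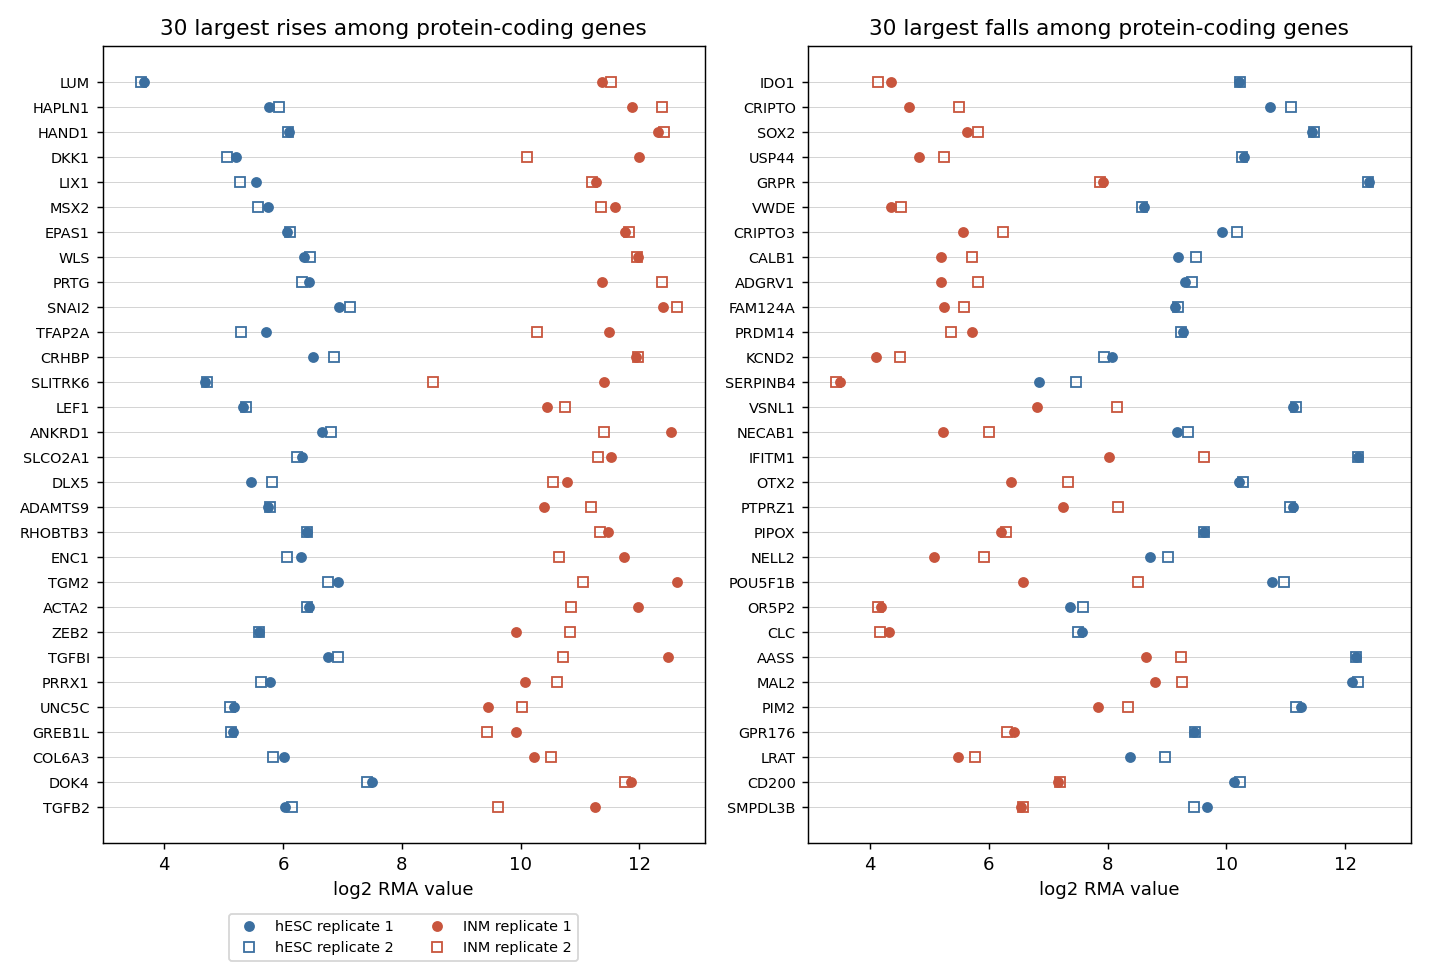
Log2 signal on each of the 4 arrays for the 30 protein-coding genes with the largest kept rise (left) and the 30 with the largest kept fall (right), ordered by size. Blue marks are hESC and red marks INM, filled circles replicate 1 and open squares replicate 2; SLITRK6 and DKK1 show the widest gaps between the INM arrays among the rises.

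The largest kept rises included those of several transcription factors. MSX2, a homeobox factor that BMP signals induce, stood at 5.74 and 5.57 in hESC and at 11.59 and 11.35 in INM, a change of 5.82 (SE 0.14). EPAS1, the hypoxia-inducible factor 2 alpha, stood at 6.07 and 6.11 in hESC and at 11.76 and 11.83 in INM. LEF1, the partner of beta-catenin, stood at 5.33 and 5.38 in hESC and at 10.44 and 10.75 in INM. Both repressors of epithelial genes among the 30, SNAI2 and ZEB2, went from 6.95 and 7.12 to 12.40 and 12.64, and from 5.59 on both arrays to 9.92 and 10.83. The homeobox genes DLX5 and PRRX1 changed by 5.03 (SE 0.17) and 4.64 (SE 0.19). SNAI2 is also the leading neural crest marker, and of the other 6 in that list SOX9 and PAX3 were called higher, without being kept, while SOX10, FOXD3, TFAP2B and PAX7 were not called.

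By factor family, T-box genes, regulators of mesoderm and heart, were called higher in 5 of 17 cases (29.4%) and lower in 0. The counts were the same after quantile normalization and after cyclic loess. The 5 were TBX20 (4.19), TBX3 (4.13), TBX4 (3.27), TBX18 (1.36) and TBX15 (1.09), and all were kept. Basic helix-loop-helix factors gave 20 rises (22.2%) and 6 falls (6.67%) of 90, led by HAND1 at 6.27 and HEY1, a Notch target, at 3.34. KLF and SP factors gave 9 rises (36.0%) of 25, led by KLF3 at 2.00 (SE 0.17), and 1 fall (4.00%), SP4 at -1.31. Of 38 nuclear receptors 7 (18.4%) were called higher and 5 (13.2%) lower, close to the shares of protein-coding genes. The rises included PPARG, the regulator of fat cells (5.32 and 5.05, then 8.82 and 8.22), and RARB, a retinoic acid receptor (4.58 and 4.80, then 7.67 and 7.93). NR5A2, a nuclear receptor of early embryonic cells, fell from 7.89 and 7.72 to 5.27 and 5.35. SOX factors gave 4 rises (21.1%) and 3 falls (15.8%) of 19, also close to the shares of protein-coding genes. SOX6 (1.49) and SOX2 (-5.73) were kept, and SOX5, SOX9, SOX7, SOX15 and SOX21 were not.

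C2H2 zinc-finger genes, most of which encode DNA-binding repressors, gave 92 rises (18.1%) and 92 falls (18.1%) of 508. Among protein-coding genes the shares were 20.3% and 13.7%. Of these calls 26 rises and 40 falls were kept. The counts were 79 and 104 after quantile normalization, and 90 and 95 after cyclic loess. ZSCAN10, a factor of pluripotent cells, fell by 2.82 (SE 0.13), ZNF589 fell by 2.57 (SE 0.11) and ZNF721 fell by 2.14 (SE 0.12). The kept rise of largest size was ZNF503, from 6.33 and 6.60 to 7.89 and 8.89. ZNF521 had a larger rise, 2.50, which was lost without hESC replicate 1 or 2. Median change over the family was 0.04, and after median centring it was -0.04.

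Genes of the 2 applied pathways changed on both sides. DKK1, a secreted Wnt inhibitor, stood at 5.21 and 5.05 in hESC and at 12.00 and 10.11 in INM. WLS, which carries Wnt proteins to the cell surface, stood at 6.36 and 6.45 in hESC and at 11.98 and 11.96 in INM. WNT5A, a ligand, changed by 3.87 (SE 0.30), and RNF43, a ligase that removes Frizzled receptors, by 2.03 (SE 0.13). In the opposite direction went the receptors FZD7, from 10.87 on both arrays to 8.19 and 8.33, and FZD5, from 9.93 and 9.92 to 7.54 and 7.00. The secreted inhibitors SFRP2 and WIF1 changed by -1.95 (SE 0.28) and -1.97 (SE 0.11), whereas DKK2 rose by 1.91 (SE 0.21). Over the list of Wnt ligands, receptors and secreted inhibitors 14 of 44 (31.8%) were called higher and 6 (13.6%) lower, 7 and 6 of them kept.

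Among TGF-beta superfamily ligands 9 of 34 (26.5%) were called higher and 7 (20.6%) lower. BMP4, the gene of one of the proteins added to the medium, itself rose from 7.81 and 7.65 to 10.67 and 11.83. TGFB2 rose from 6.04 and 6.15 to 11.25 and 9.62 and TGFB1 from 6.84 and 6.97 to 9.83 and 9.52. NOG, a secreted BMP inhibitor, stood at 5.48 and 5.18 in hESC and at 10.31 and 8.52 in INM. GDF3, a ligand of pluripotent cells, fell by 2.02 (SE 0.24), and CRIPTO, the co-receptor of NODAL, fell from 10.74 and 11.08 to 4.66 and 5.50. FOXH1, a factor that works with SMAD proteins of the NODAL pathway, fell from 8.05 and 8.36 to 6.40 and 7.07. CRIPTO3 is a near-identical copy of CRIPTO, so its own level is uncertain.

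Regulators that dampen growth factor signals had more rises than falls. Of 30 dual-specificity phosphatases, Sprouty and related genes 12 were called higher and 0 lower, with 9 rises kept, and after quantile normalization or cyclic loess the counts were 11 and 1. SPRY2 stood at 8.13 and 7.94 in hESC and at 10.61 and 10.16 in INM, SPRED2 rose by 1.98 (SE 0.15) and DUSP10 by 1.67 (SE 0.19). Of 32 FGF ligands and receptors 8 (25.0%) were called lower and 3 (9.38%) higher. The rises were FGF1 (2.26), FGF18 (1.40) and FGF9 (0.93), and none was kept: FGF1 was lost without hESC replicate 1 or 2 and FGF18 without hESC replicate 2. Guidance cues gave 10 rises (33.3%) and 5 falls (16.7%) among 30 semaphorins, plexins and neuropilins. NRP2, a neuropilin, rose from 7.21 and 7.27 to 10.09 and 9.99, and SEMA4D fell from 8.83 and 8.95 to 6.72 and 7.24.

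The largest kept rises also included genes of the extracellular matrix. LUM, a collagen-binding proteoglycan, was at the olfactory receptor level in hESC, at 3.65 and 3.60, and at 11.38 and 11.53 in INM. HAPLN1, a link protein of hyaluronan, rose from 5.77 and 5.93 to 11.87 and 12.39, and HAS2, which makes hyaluronan, from 6.84 and 6.67 to 9.70 and 11.66. COL6A3, a chain of collagen VI, stood at 6.01 and 5.83 in hESC and at 10.22 and 10.51 in INM. COL3A1 changed by 3.44 (SE 0.23) and POSTN, periostin, by 3.61 (SE 0.20). Of 43 collagen genes 11 (25.6%) were called higher, 9 of them kept, and 1 (2.33%) lower, COL9A1 at -0.74, which was not kept. Of 12 laminins and nidogens 6 (50.0%) were called higher and 1 (8.33%), LAMA2 at -0.59, lower. LAMB1 rose by 2.11 (SE 0.23) and NID1 by 1.56 (SE 0.13).

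Of 41 ADAM and ADAMTS genes, metalloproteases that cut matrix and surface proteins, 16 (39.0%) were called higher and 5 (12.2%) lower. The counts were 16 and 6 after quantile normalization. ADAMTS9 stood at 5.75 and 5.78 in hESC and at 10.39 and 11.19 in INM, and ADAMTS6 at 5.23 and 5.21 in hESC and at 8.68 and 7.91 in INM. The falls were ADAMTS20, ADAMTSL1, ADAM23, ADAM20 and ADAMTS16, between -1.40 and -0.76. TGM2, a transglutaminase that cross-links proteins, rose from 6.92 and 6.76 to 12.63 and 11.05. The heparan sulfate enzymes EXT1 and SULF1 changed by 1.92 (SE 0.11) and 1.61 (SE 0.11).

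Among cell adhesion genes, the cadherin list gave 7 rises (17.9%) and 4 falls (10.3%) of 39, protocadherins 7 (17.5%) and 9 (22.5%) of 40, and tetraspanins 5 (15.6%) and 7 (21.9%) of 32, against 20.3% and 13.7% of protein-coding genes. CDH11, a mesenchymal cadherin, rose from 8.29 and 8.12 to 12.34 and 12.27. ITGA5, the fibronectin receptor subunit, rose from 8.55 and 8.56 to 11.23 and 10.95, and ITGB6 from 4.98 and 4.99 to 8.96 and 8.14. The symbol list for integrins counted 10 rises and 3 falls of 29, but 2 of the falls, ITGB1BP2 and ITGB3BP, are binding partners and not integrins; the integrin that fell was ITGA7 at -1.10. Claudins and related genes of the tight junction, the seal between epithelial cells, were called lower in 11 of 32 cases (34.4%) and higher in 2, CLDN4 (0.56) and TJP1 (0.55), which were not kept. After quantile normalization the counts were 11 and 0. CLDN7 fell from 10.92 and 10.94 to 9.45 and 9.50. Of 48 keratins 5 (10.4%) were called higher, against 20.3% of protein-coding genes. KRT19, KRT18 and KRT8 were kept, and KRT7 and KRT23 were not. KRT76 (-0.47) and KRT84 (-0.37) were called lower (4.17%), and neither was kept. The median hESC level of keratins was 5.66, so the trend with level bears on these shares. Rises and falls numbered 6 and 0 after quantile normalization, and 8 and 0 after cyclic loess. KRT8 and KRT18, which pair in simple epithelia, stood at 12.87 and 12.93 and at 12.50 and 12.17 in INM, up by 2.05 (SE 0.12) and 2.14 (SE 0.15). KRT7 is also on the trophoblast or amnion list, whose summed signals are given above.

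In the lists for secretion rises outnumbered falls. Of 59 genes of secretory transport coats 27 (45.8%) were called higher and 4 lower, and 20 and 4 after quantile normalization, where 16.0% of protein-coding genes were called higher and 16.9% lower. COPG1 and COPB1, subunits of the COPI coat, rose from 9.17 and 9.30 to 10.78 and 10.79 and from 8.84 and 9.07 to 10.38 and 10.45. The COPII coat gene SEC31A rose by 1.34 (SE 0.11), and ARF6, a small GTPase of membrane traffic, by 1.68 (SE 0.12). The falls were SEC11C, TMED9, TMED2 and SEC14L4, of which SEC14L4 is a lipid-binding protein and no coat subunit. Rab GTPases, switches of vesicle transport, gave 23 rises (39.0%) and 7 falls (11.9%) of 59, and 16 and 9 after quantile normalization. Median hESC levels were 8.72 for the coat list and 7.83 for Rab genes, so the trend with level bears on both lists. Of all genes at an SMC level of 8.2 to 8.82, 31.3% were called higher and 10.2% lower. At a level of 7.66 to 8.2 the shares were 26.7% and 13.0%. RAB31 rose by 1.88 (SE 0.15), and RAB17 and RAB19 changed by -1.64 (SE 0.14) and -1.56 (SE 0.11).

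Genes of the actin skeleton and of cilia were also among the calls. ACTA2, smooth muscle actin, stood at 6.44 and 6.41 in hESC and at 11.97 and 10.85 in INM, and MYH9, a non-muscle myosin, rose by 1.73 (SE 0.16). MYO5C fell by 2.11 (SE 0.12). Genes of cilia, the axonemal dyneins and intraflagellar transport list, were called higher in 17 of 48 cases (35.4%) and lower in 1 (2.08%), DYNC2I1 at -0.87. The cilium assembly genes BBS5 and BBS1 rose by 2.15 (SE 0.15) and 1.52 (SE 0.11), and KIFAP3, a partner of the kinesin that moves cargo along cilia, rose from 5.91 and 6.04 to 10.22 on both arrays.

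**Figure D5:**
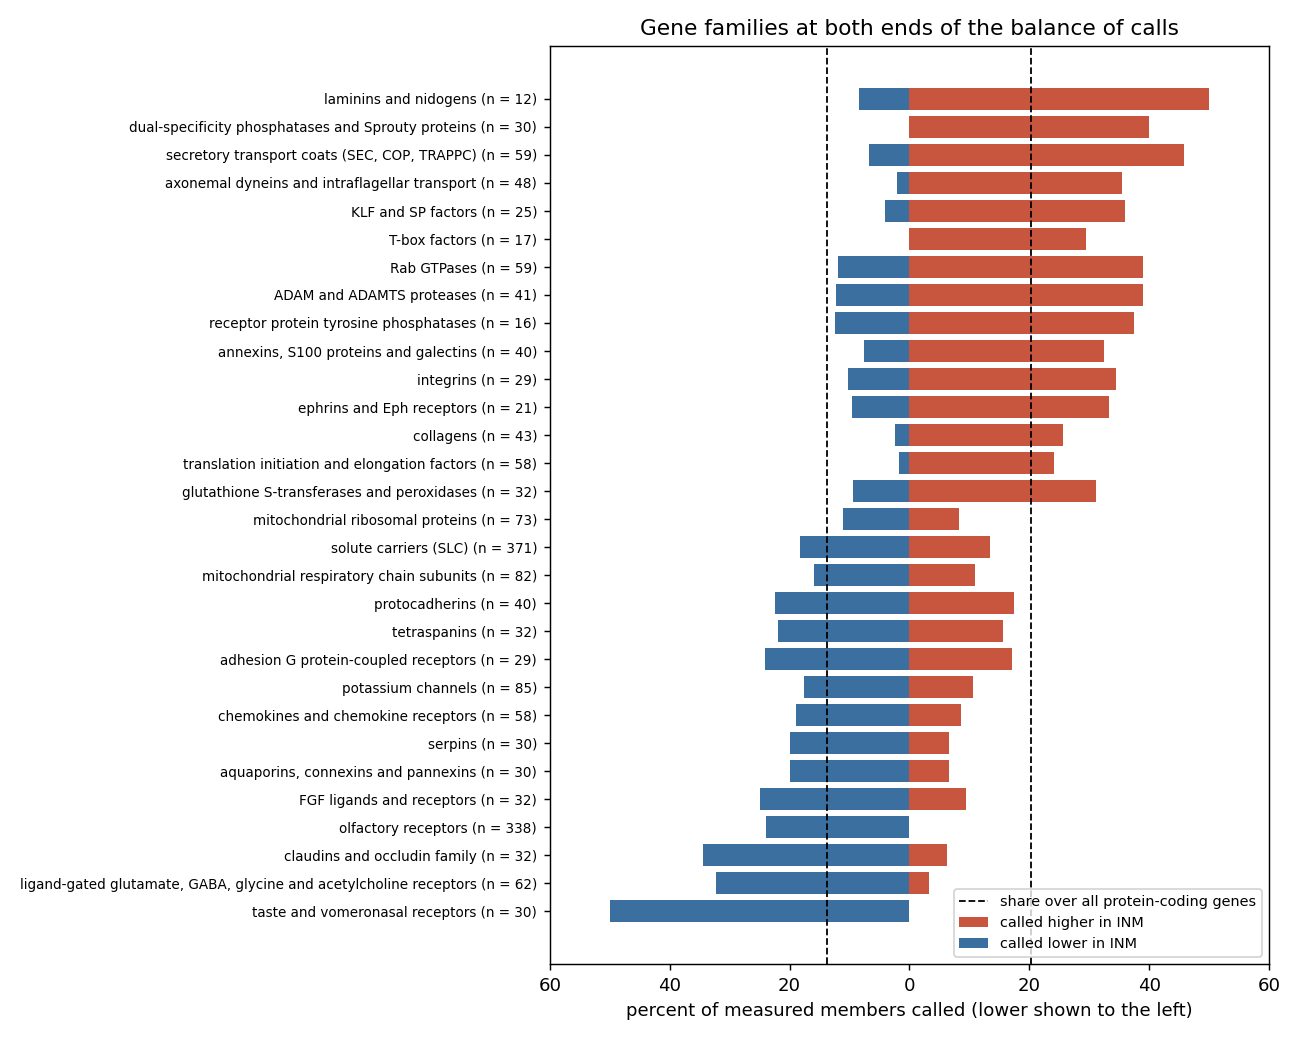
Percent of measured members called higher (red, right) and lower (blue, left) in INM for 30 of 61 gene families, the 15 with the highest and the 15 with the lowest difference between those shares, with dashed lines at the shares over all protein-coding genes (20.3% and 13.7%). Secretory coats, Rab genes and matrix families extend to the right; claudins, ligand-gated receptors and the low-signal sensory receptors extend to the left.

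Of 62 ligand-gated receptors for glutamate, GABA, glycine, acetylcholine and related transmitters 20 (32.3%) were called lower and 2 higher, GRIK2 (1.13, not kept) and P2RX4 (0.99). The counts were 18 and 2 after quantile normalization. CHRNA5 stood at 9.78 and 9.89 in hESC and at 7.80 and 8.31 in INM, GABRQ at 8.25 and 8.16 in hESC and at 5.95 and 6.70 in INM. KCND2, a potassium channel, fell from 8.08 and 7.94 to 4.10 and 4.51, and KCNMA1, a calcium-activated potassium channel of smooth muscle, rose from 6.11 and 6.03 to 8.49 and 8.31. Adhesion receptors coupled to G proteins gave 7 falls (24.1%) and 5 rises (17.2%) of 29. ADGRV1 fell from 9.31 and 9.42 to 5.20 and 5.82, and ADGRA2, a co-receptor of Wnt7 signals, rose by 3.17 (SE 0.17). GRPR, the receptor of gastrin-releasing peptide, fell from 12.41 and 12.39 to 7.92 and 7.87.

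Several of the largest falls encode metabolic enzymes. IDO1, which breaks down tryptophan, fell from 10.21 and 10.23 to the olfactory receptor level, at 4.35 and 4.13. AASS and PIPOX, which act in the breakdown of lysine, stood at 12.18 and 12.19 and at 9.63 and 9.62 in hESC and changed by -3.25 (SE 0.22) and -3.38 (SE 0.11). LRAT, which stores retinol as its ester, fell from 8.38 and 8.97 to 5.48 and 5.76. The cytochromes CYP2S1 and CYP2B6 changed by -2.73 (SE 0.31) and -2.86 (SE 0.14), and CYP1B1 rose by 3.06 (SE 0.34). Of 371 solute carriers 68 (18.3%) were called lower and 50 (13.5%) higher, against 13.7% and 20.3% of protein-coding genes. SLC7A3, an amino acid transporter, fell from 11.47 and 11.44 to 8.06 and 9.25. SLCO2A1, a prostaglandin transporter, rose from 6.32 and 6.24 to 11.53 and 11.30.

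In families that encode the basic machinery of the cell, mostly genes of high signal, the balance of calls depended on the scaling. Of all protein-coding genes 20.3% were called higher and 13.7% lower in the deposited values. These shares were 16.0% and 16.9% after quantile normalization and 17.3% and 14.2% after cyclic loess. Ribonucleoproteins and splicing factors gave 17 rises and 17 falls of 105, but 8 and 32 after quantile normalization and 10 and 28 after cyclic loess. Mitochondrial respiratory chain subunits gave 9 and 13 of 82, then 4 and 28, then 4 and 22. Nucleolar ribosome assembly factors gave 11 and 14 of 114, then 7 and 32, then 8 and 25. In the respiratory chain and nucleolar lists falls outnumbered rises under each of these scalings, by a margin that varied. Translation factors turned from 14 rises and 1 fall of 58, EIF4E3 at -0.55, to 5 and 6 after quantile normalization, and gave 7 and 3 after cyclic loess. None of these families is given a direction here. Chemokines and their receptors, at the low end of signal, turned likewise, from 5 rises and 11 falls of 58 to 8 and 6 under both scalings.

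Calls also lay side by side on chromosomes. Runs of at least 4 consecutive measured protein-coding genes called in the same direction numbered 53, 36 of rises and 17 of falls; no chance level is given for this count. A run of 7 rises held RP9, BBS9, BMPER, DPY19L1, TBX20, HERPUD2 and SEPTIN7, in which TBX20 and BMPER, a binder of BMP proteins, changed by 4.19 and 2.57. The BMPER call was lost without hESC replicate 1 or 2 and without either SMC array. Another run joined UBE2E1, NKIRAS1 and the nuclear receptor genes NR1D2, THRB and RARB. A run of 4 falls held HLA-DOB, TAP2, PSMB8 and TAP1, genes of antigen processing, with TAP1 from 7.90 and 7.93 to 6.03 and 6.02. It reaches 4 only with HLA-DOB, which changed by -0.38, was not kept and stood at the olfactory receptor level in both groups. The longest runs of falls were of taste receptors and olfactory receptors, and 6 rises in a row were glutathione S-transferases of the mu class with AMPD2. Near-identical copies make the single members of these 3 runs uncertain.

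Promoter windows of the genes that changed were searched for short motifs. RefSeq promoter windows (GRCh38.p14, 250 bases before to 50 after the start) were taken for the 10080 protein-coding genes with exactly 1 window, and 12 motifs were searched on both strands. These were the TATA box (TATAAA), the octamer of POU factors (ATGCAAAT), the TCF and LEF site (CTTTGAT), the SMAD palindrome (GGCGCC), the GATA site (AGATAA), the SOX site (CATTGTT), the CCAAT box (CCAAT), the E-box of the SNAI and ZEB repressors (CAGGTG), the CRE site (TGACGTCA), the homeodomain core (TAATTA), the ETS site (CCGGAAG) and the TEAD site (GGAATG). The E-box CAGGTG, or CACCTG on the other strand, was found in 19.5% of all 300-base windows. It was found in 30.3% (92 of 304) of the windows of genes that fell by at least 1 with a kept call, and in 14.3% (78 of 546) of those that rose likewise. At a change of at least 2 the shares were 33.8% and 13.0%. This motif was singled out after the values of all 12 were seen, and a match is a description of letters, not of binding. The POU octamer stood in 3.95% of the windows of falls by at least 1, in 1.10% of those of rises and in 1.70% of all windows. For the SOX site the shares were 3.62%, 1.10% and 2.12%, and for the GATA site 9.87%, 6.04% and 7.62%. The TCF and LEF site was in 1.32% of the falls and 1.65% of the rises, against 1.98% of all windows. The SMAD palindrome was in 24.7%, 33.5% and 26.6%, the TATA box in 11.2%, 6.78% and 9.68%, and the CCAAT box in 40.1%, 33.0% and 37.3%, in the same order of falls, rises and all windows. For the ETS site this order gave 11.2%, 11.4% and 15.9%, for the TEAD site 13.2%, 12.1% and 11.3%, for the CRE site 2.96%, 3.11% and 2.95%, and for the homeodomain core 2.30%, 1.47% and 3.09%.

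Base composition and signal level differ between the sets, and the shares were therefore also taken within strata. Windows rich in CpG (observed over expected above 0.6) made up 69.5% of all windows, 80.6% of the rises and 64.5% of the falls. Among CpG-rich windows the E-box share was 17.6% for all genes, 30.6% for falls and 15% for rises, and among the other windows 23.7%, 29.6% and 11.3%. In the upper part of genes by SMC level it was 15.3% for all genes, 22.9% for falls and 12.4% for rises. In the lower part it was 23.7%, 33.7% and 24.4%, so that there the rises did not lie under the share of all windows. Windows of genes with large falls show where the letters stand, with each match in capitals:
ADGRV1 (chr5:90558547-90558846, plus strand): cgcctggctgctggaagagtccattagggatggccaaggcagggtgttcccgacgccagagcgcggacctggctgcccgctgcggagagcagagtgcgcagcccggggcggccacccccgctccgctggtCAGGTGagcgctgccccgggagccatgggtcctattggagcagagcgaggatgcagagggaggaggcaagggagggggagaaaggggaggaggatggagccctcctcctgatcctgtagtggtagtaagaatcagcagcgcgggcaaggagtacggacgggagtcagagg
KCND2 (chr7:120272925-120273224, plus strand): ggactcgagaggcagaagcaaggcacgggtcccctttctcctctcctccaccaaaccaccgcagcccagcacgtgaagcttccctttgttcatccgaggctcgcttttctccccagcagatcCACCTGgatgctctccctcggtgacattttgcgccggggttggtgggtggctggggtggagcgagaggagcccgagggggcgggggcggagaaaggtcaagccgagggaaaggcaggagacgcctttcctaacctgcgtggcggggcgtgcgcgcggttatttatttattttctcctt
PIM2 (chrX:48918975-48919274, minus strand): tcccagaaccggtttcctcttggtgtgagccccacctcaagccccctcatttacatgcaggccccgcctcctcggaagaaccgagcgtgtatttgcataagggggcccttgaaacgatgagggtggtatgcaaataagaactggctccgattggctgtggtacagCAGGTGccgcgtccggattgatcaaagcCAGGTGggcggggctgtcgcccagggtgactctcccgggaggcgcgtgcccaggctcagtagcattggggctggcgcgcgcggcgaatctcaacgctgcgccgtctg

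PIM2 encodes a serine/threonine kinase, and its window holds 2 E-box matches, while those of ADGRV1 and KCND2 hold 1 each. Matches to the other motifs are not marked in these windows. Among such matches, the PIM2 window holds the POU octamer on each strand and the TCF and LEF site. PIM2 stood at 11.26 and 11.18 in hESC and at 7.84 and 8.34 in INM, a change of -3.13 (SE 0.18). ADGRV1 and KCND2 changed by -3.85 (SE 0.20) and -3.71 (SE 0.18). The 3 genes were picked for a large kept fall and a match, so that lower INM arrays and kept calls follow from the choice.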

How the data were processed

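Total RNA of 6 WA09 samples was hybridised to Affymetrix arrays, 1 per sample. The values deposited by the authors are log2 signals of 33297 probe sets. The submitters' processing notes name RMA and limma but no version or setting, and the log2 scale was taken from the range of the values (1.36 to 14.1). Of the probe sets, 19460 carried 1 symbol in the platform's annotation, 1754 several and 12083 none; 19429 identifiers matched the RefSeq gene table. For 769 genes with several probe sets the one with the highest mean was kept, which gave 18417 genes. The array's genome build is not given in the sources used here.

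The 3 group means were estimated from all 6 arrays in 1 model (limma 3.58.1, R 4.3.3; lmFit, eBayes; 3 residual and 3.56 prior degrees of freedom), without a filter or a replicate block. In simulated data with the spread pooled over 3 groups, calls recovered 2%, 42% and 90% of genes raised by 0.5, 1 and 2. Of genes lowered by 2 they recovered 82%, and 0.011% of the 18217 unchanged genes were called. Each change was given to only 50 genes, whereas 6217 genes were called in the data. Array weights by group were 0.459 for INM, 1.31 for hESC and 1.66 for SMC. How such unequal spread alters the simulated shares was not tested. The 0.011% is therefore no rate of false calls for INM against hESC. The number of arrays limits precision.

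Comparison, marker lists and the 61 symbol families were chosen with earlier results of these data known. Named genes are the 30 largest kept protein-coding and 8 largest kept non-coding changes in each direction, the 15 widest gaps between INM arrays each way, leading family members, markers, and genes with INM arrays on opposite sides of hESC. Further genes shown (other family members, 1-array rises, neighbours, miRNAs, NOG, KIFAP3 and POSTN) were chosen after their values were seen. XIST and Y-linked genes were left out.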

Additional observations from a re-analysis of the deposited data

Results flagged for a closer look

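Outside the named genes, 149 of the 12083 probe sets without a gene symbol here were called higher in INM by at least 1 and stood above the olfactory receptor level there, which is a signal in data the report does not use. The largest of these rises was 5.23. In all, 161 such probe sets were called higher by at least 1 and 1895 lower, with a median change of -0.30 over the 12083. What they measure was not tested.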

How the results depend on the processing

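The count of rises was 3486 and that of falls 2731. Leaving out 1 array at a time gave 1719 to 4337 rises and 1220 to 3491 falls, the lowest without hESC replicate 1 and, for falls, the highest without INM replicate 2. At an adjusted p under 0.01 there were 1967 rises and 1245 falls, and with a change of at least 1 there were 1322 and 741; both limits are stricter by construction. With the replicate number as a block the counts were 3274 and 2439; only 2 numbers are shared, so the labels do not establish a pairing. The other settings kept both counts within 1.5 times. Rises and falls were 2627 and 1871 with only the 4 arrays, and 3105 and 2125 with array weights by group. They were 3032 and 3558 with median centring, 2771 and 3227 with quantile normalization, and 2994 and 2715 with cyclic loess. Cyclic loess, like the limit at the olfactory receptor level, was chosen after seeing the data. The 76 genes of largest change were chosen for size among kept calls. Their calls with all arrays and in the 4 fits without 1 hESC or INM array therefore follow from the choice. They were also called in each other setting that tested them. The filter on low signal removed 2 of them and the olfactory receptor limit 10. The INM arrays differed by more than 1 in 634 to 700 genes over the scalings, the filter and the probe set rule. Leaving out INM replicate 1 or INM replicate 2 made 10 of the named genes, none called with all arrays, a call opposite in sign to the reported change (sign turns without a call are not listed): the change was -0.50 or 2.12 for CGA, 1.18 or -1.20 for KDR, -1.14 or 3.12 for LPL, -0.80 or 1.87 for ST6GAL2, -0.61 or 2.26 for STMN2, 3.34 or -1.39 for CST1, 1.51 or -1.18 for CTSV, -1.77 or 1.58 for GNA14, 1.32 or -1.12 for PLPPR4 and 1.63 or -0.92 for TEK, the former value without INM replicate 1. These turns follow from the gap between the INM arrays. The arrays' signal over background is not given in the sources used here, which limits what can be said of genes at the olfactory receptor level.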
